A study of Mus musculus with 13 samples.

Results

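Type I interferon response genes, which cells switch on when interferon binds its receptor, were followed in 13 bulk RNA samples of hippocampus from male mice at 9 months of age. The set was a list of 39 named genes, chosen with earlier results of these data known. Among them were nucleic acid sensors, Stat and Irf factors, and the Ifit, Oas and Gbp families. All 39 were found among the 56980 genes of the deposited count table. All samples, controls included, were AppNL-G-F (disease mutations knocked into the mouse's own amyloid precursor gene, so that plaques form) and Lpcat3 f/f. The 7 knockout samples also carried vav1-CRE, a Cre recombinase under Vav1 control that works in the blood lineage, microglia among them, while the 6 control samples (WT in the labels) carried no Cre; microglia supply only a part of whole hippocampal RNA. Per the labels' protocols, all mice were gavaged with a 20 mg/ml tamoxifen solution at 0.2 mg per g body weight; whether deletion depended on it is not stated there. Lpcat3 encodes an acyltransferase that loads polyunsaturated fatty acids onto phospholipids, and the comparison sets its loss in that lineage against intact Lpcat3. Nothing in the labels ties a sample to an animal of its own, and the p-values cover the variation among the samples as they are. Libraries held 12159941 to 18322559 counts. Lpcat3 itself was at 24.7 to 30.3 CPM (read counts scaled to the library's size; median 28.2) in controls and at 17.3 to 24.3 CPM (median 19.0) in knockouts, so that the groups did not overlap (exact two-sided permutation p = 0.0023 over 1716 splits). Its log2 fold change was -0.45 (SE 0.088, adjusted p = 0.096 in edgeR), and transcript thus remained in every knockout sample.

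Type I interferons are secreted proteins that cells make when sensors such as Rig-I, Mda5 or cGas meet viral or misplaced nucleic acid. They bind the receptor pair Ifnar1 and Ifnar2, whose kinases Jak1 and Tyk2 phosphorylate Stat factors; Stat2 and Irf9 belong to the complex that binds the interferon-stimulated response element in the promoters of its target genes. The products of those genes bind or degrade viral RNA, block translation, tag proteins with Isg15 or recruit immune cells, and several of them, such as Stat2, Irf7, Irf9 and the sensors, belong to the pathway that induced them. In the brain, microglia are a main source of this response, and a minority of microglia with high interferon-stimulated genes is a known state around amyloid plaques.

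Promoter sequence showed what the genes share apart from their expression. In RefSeq's promoter table for GRCm38.p6, which spans 250 bases before to 50 after each start, 29 of the 39 genes had an entry, with 33 promoters in all. The core of the interferon-stimulated response element, searched on both strands as GAAA, any 2 bases and GAAA again, was in 19 of these 33 promoters (57.6%) and in 3.44% of all 32851 promoters of the same length. The gamma-activated site, an element of interferon gamma targets, was searched as TTCNNNGAA, which reads the same on both strands and can share bases with the first motif; it was in 7 of the 33 (21.2%) and in 8.30% of all promoters. The upstream stretches of 8 genes are shown with the response element core in capitals, because they set genes that were higher in knockouts at an unadjusted p under 0.05 (Ifit1, Gbp3, Stat2 and Trim30a) beside genes of the same families or pathway that were not (Ifit3, Ifit3b, Gbp2 and Isg15). TTTC letters in capitals are the same core read on the other strand. Ifit1, Ifit3 and Ifit3b each had 2 cores in the 250 bases before the start. For Ifit3 and Ifit3b the stretch shown cuts through the other core, which is therefore not in capitals.
Ifit1 (chr19:34640772-34640846, plus strand): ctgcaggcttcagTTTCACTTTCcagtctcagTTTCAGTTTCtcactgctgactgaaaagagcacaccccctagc
Gbp3 (chr3:142559969-142560043, plus strand): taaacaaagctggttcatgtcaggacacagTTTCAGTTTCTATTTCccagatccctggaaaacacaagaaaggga
Stat2 (chr10:128270248-128270322, plus strand): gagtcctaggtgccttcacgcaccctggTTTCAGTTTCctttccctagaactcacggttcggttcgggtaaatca
Trim30a (chr7:104465194-104465268, minus strand): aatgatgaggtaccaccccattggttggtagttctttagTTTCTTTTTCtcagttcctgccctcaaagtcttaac
Ifit3 (chr19:34583375-34583449, plus strand): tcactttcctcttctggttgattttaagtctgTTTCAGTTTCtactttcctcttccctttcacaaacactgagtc
Ifit3b (chr19:34607771-34607845, plus strand): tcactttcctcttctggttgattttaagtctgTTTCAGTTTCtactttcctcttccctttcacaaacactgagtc
Gbp2 (chr3:142620572-142620646, plus strand): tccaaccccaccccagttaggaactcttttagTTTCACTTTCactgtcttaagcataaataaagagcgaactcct
Isg15 (chr4:156200842-156200916, minus strand): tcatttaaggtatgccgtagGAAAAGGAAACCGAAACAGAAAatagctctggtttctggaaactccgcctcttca
The Ifit3 and Ifit3b stretches were identical, and Isg15, the gene with the most cores in this window (3, overlapping), was 1 of the 2 tested members with a log2 fold change below 0. Of the tested genes with a core, 16 of 18 had a positive log2 fold change with a median of 0.18. Of those with a promoter entry but no core, 11 of 11 were positive with a median of 0.29. An unadjusted p under 0.05 in edgeR was held by 5 of the 18 and 5 of the 11, all higher, where 5.23% of all genes were higher. No test was made of this split.

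Most interferon response genes were somewhat higher in the knockout, by small amounts and without passing the test singly. Of the 39 genes, 37 had enough counts to be tested and 35 of these 37 had a log2 fold change above 0 (94.6%, against 48.7% of all 17549 genes tested). The median was 0.23, between -0.27 for Isg15 and 0.75 for Ifi44, beside a median of -0.0041 over all genes. An unadjusted p under 0.05 was held by 11 of the 37 (29.7%), all higher in the knockout, where 5.23% of all genes were higher and 7.25% lower by the same rule. The members moved together between libraries, as given further below, so such shares do not rest on independent genes. With Benjamini-Hochberg adjustment over all genes 0 of the 37 passed in edgeR's quasi-likelihood test, with adjusted p from 0.14 up, where 0.0228% of all genes passed in either direction, 0.0171% higher and 0.0057% lower. DESeq2 called 3 of them higher at an adjusted p under 0.05, namely Gbp3 (0.011), Oasl2 (0.014) and Ddx58 (0.021), and 0 lower, where it called 0.587% of the 13466 genes with an adjusted p higher and 0.735% lower. It left the adjusted p of some low members such as Ifi44 undefined. No member had knockouts and controls apart without overlap, as 0.171% of all genes had in the higher and 0.274% in the lower direction. Because whole hippocampus was sequenced, more cells of a type and more RNA per cell cannot be told apart.

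**Figure D1:**
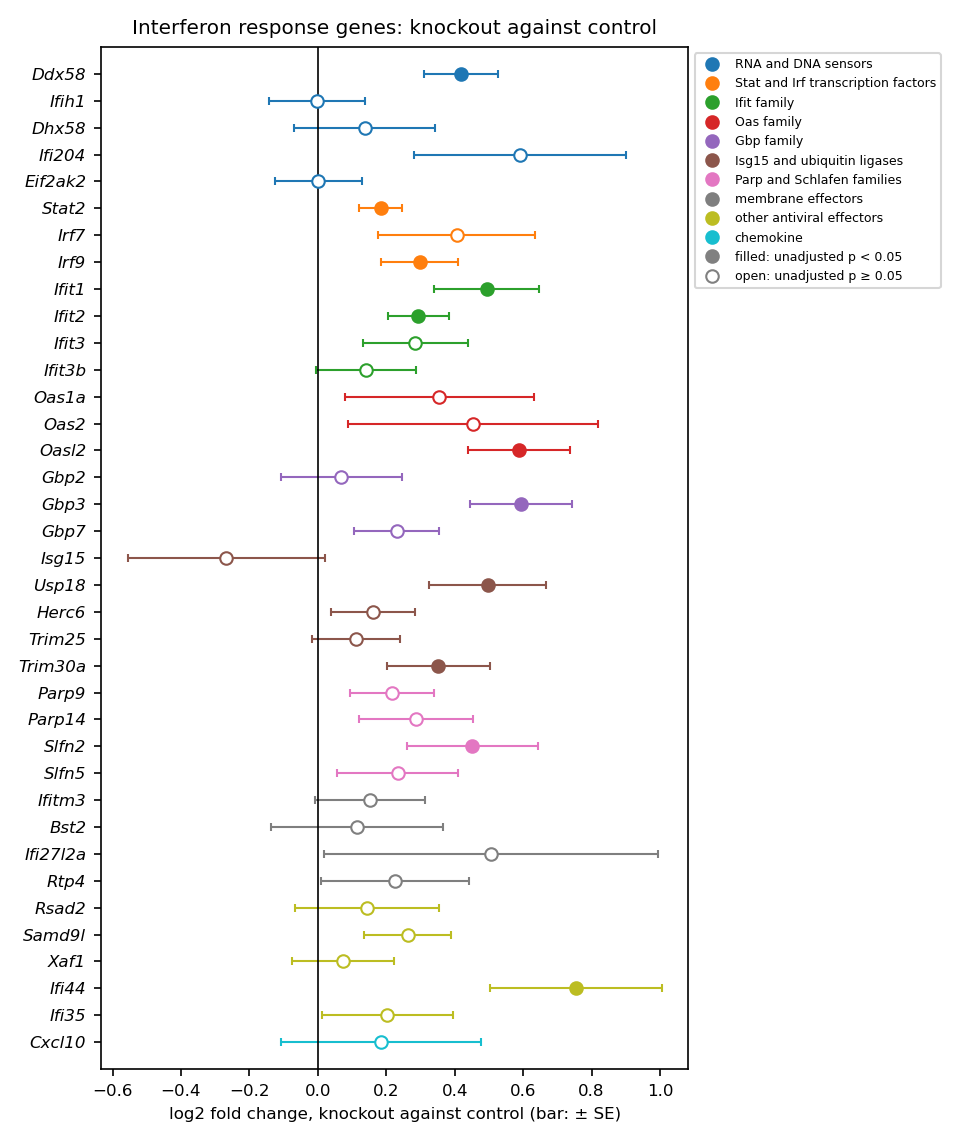
Log2 fold change of knockout against control for the 37 interferon response genes tested, with the standard error as a bar, coloured by role; filled points have an unadjusted p under 0.05 in edgeR. The points lie right of 0 for 35 of the 37 genes, and the 11 filled points range from 0.18 (Stat2) to 0.75 (Ifi44).

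Among the 6 nucleic acid sensors, Ddx58 was the only one with an unadjusted p under 0.05 in edgeR; differences between the sensors were not tested. Ddx58 encodes Rig-I, which detects short double-stranded RNA with triphosphate ends. It lay between 8.38 and 12.1 CPM (median 9.70) in controls and between 11.4 and 16.2 CPM (median 12.2) in knockouts. All 7 knockouts were above the control median, 4 were above every control, and only control replicate 5 reached into the knockout range. The log2 fold change was 0.42 (SE 0.11, adjusted p = 0.15 in edgeR). Ifih1, which encodes Mda5, the sensor of long double-stranded RNA, was at 6.32 to 11.2 CPM (median 8.91) in controls and 7.52 to 11.8 CPM (median 8.17) in knockouts. Eif2ak2, the kinase that halts translation on double-stranded RNA, was at 6.98 to 11.2 CPM (median 9.37) and 7.41 to 10.9 CPM (median 8.81). For both genes the groups lay over each other, with a log2 fold change of -0.0025 (SE 0.14) for Ifih1 and 0.0015 (SE 0.13) for Eif2ak2. Dhx58, the regulatory relative Lgp2, was at 0.14 (SE 0.21). Ifi204, a DNA sensor, ran from 0.489 to 2.89 CPM (median 2.07) in controls and from 1.63 to 3.67 CPM (median 3.14) in knockouts, with 4 knockouts above every control (log2 fold change 0.59, SE 0.31, adjusted p = 0.46 in edgeR). The low end of its controls was set by control replicates 1 and 3. Zbp1, a sensor of left-handed nucleic acid, was below the count filter, at 0.222 to 1.15 CPM in controls and 0.277 to 1.44 CPM in knockouts.

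All 3 transcription factors of the list had positive values. Stat2, a factor that carries the signal from the receptor to the nucleus, lay between 36.9 and 44.4 CPM (median 41.2) in controls and between 40.0 and 50.9 CPM (median 46.6) in knockouts. In 5 of the 7 knockouts it was above every control, and its small log2 fold change of 0.18 came with the smallest SE of the set (0.064, adjusted p = 0.25 in edgeR). Irf9, the DNA-binding subunit of its complex, was at 15.0 to 18.8 CPM (median 17.3) and 17.2 to 27.6 CPM (median 18.8). Knockout replicates 3 and 4 made up its upper end at 27.6 and 25.3 CPM, and the log2 fold change was 0.30 (SE 0.11, adjusted p = 0.28 in edgeR). Irf7, which amplifies interferon production, was lower in level, at 1.56 to 3.94 CPM (median 2.45) and 2.22 to 4.46 CPM (median 3.37), with a log2 fold change of 0.41 (SE 0.23).

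The Ifit genes encode proteins that hold back translation of viral RNA, and Ifit1 and Ifit2 were higher with an unadjusted p under 0.05. Ifit1, which binds RNA caps that lack methylation, was at 4.56 to 8.51 CPM (median 6.48) in controls and 7.26 to 11.7 CPM (median 7.91) in knockouts. Every knockout was above 5 of the 6 controls, and control replicate 5 alone lay inside the knockout range (log2 fold change 0.49, SE 0.15, adjusted p = 0.21 in edgeR). Ifit2 was at 14.3 to 19.0 CPM (median 16.6) and 17.0 to 25.2 CPM (median 20.3). Here 6 of 7 knockouts exceeded every control, and knockout replicate 7 was the exception (log2 fold change 0.29, SE 0.090, adjusted p = 0.20 in edgeR). Ifit3 ran from 13.7 to 22.1 CPM (median 16.7) in controls and from 12.7 to 27.3 CPM (median 21.9) in knockouts, and Ifit3b from 9.06 to 14.1 CPM (median 10.4) and from 7.13 to 15.4 CPM (median 13.2). The groups overlapped in both, and knockout replicate 2 held the lowest value of all 13 libraries in each (log2 fold changes 0.28, SE 0.15, and 0.14, SE 0.15). Their values are not independent: of the 50-base stretches in the Ifit3 transcripts of GENCODE M21, 51.2% also occur in Ifit3b, and how the authors' counting treated such reads is not given in the sources used here.

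Of the 3 Oas genes, which make or resemble the enzymes that activate RNase L, Oasl2 was the most abundant and the one with a small error. Its level lay between 6.41 and 11.1 CPM (median 9.10) in controls and between 9.48 and 17.5 CPM (median 13.8) in knockouts. As for Ifit2, 6 of 7 knockouts exceeded every control and knockout replicate 7 did not (log2 fold change 0.59, SE 0.15, adjusted p = 0.14 in edgeR). Oas1a was at 0.489 to 1.58 CPM (median 1.18) and 0.963 to 2.22 CPM (median 1.12), with a log2 fold change of 0.35 (SE 0.28). Oas2 was at 0.222 to 1.82 CPM (median 0.811) and 0.554 to 2.46 CPM (median 1.19), at 0.45 (SE 0.37). These 2 genes had 3 to 40 counts per library, the groups overlapped in both, and of the Oas1a transcript stretches 57.6% also occur in paralogs such as Oas1g. Counts of the other members that share over 10% of their stretches with another gene, Ifi204 (20.0%), Gbp7, Herc6, Rtp4 and Ifitm3, are uncertain for the same reason.

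Guanylate-binding proteins are large GTPases that coat intracellular pathogens and answer to both interferon types; the 3 in the list ranged from 0.07 to 0.59. Gbp3 had the smallest p of all 39 genes, with a rank of 99 among the 17549 tested. It lay between 7.58 and 12.2 CPM (median 10.2) in controls and between 9.63 and 20.1 CPM (median 15.8) in knockouts, which gives a fold change of 0.59 on the log2 scale (SE 0.15, adjusted p = 0.14 in edgeR). The 6 knockouts other than replicate 7 were above every control, while replicate 7 was inside the control range. Gbp7 was at 9.92 to 14.2 CPM (median 11.1) and 10.2 to 16.8 CPM (median 13.5), with 2 knockouts above every control (log2 fold change 0.23, SE 0.12). Gbp2, a gene often taken as a marker of interferon gamma, was at 5.87 to 10.02 CPM (median 7.65) and 5.23 to 12.8 CPM (median 7.34). Its knockouts spanned the whole control range, and the log2 fold change was 0.07 (SE 0.18); whether Gbp3 and Gbp2 differed in their response was not tested.

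**Figure D2:**
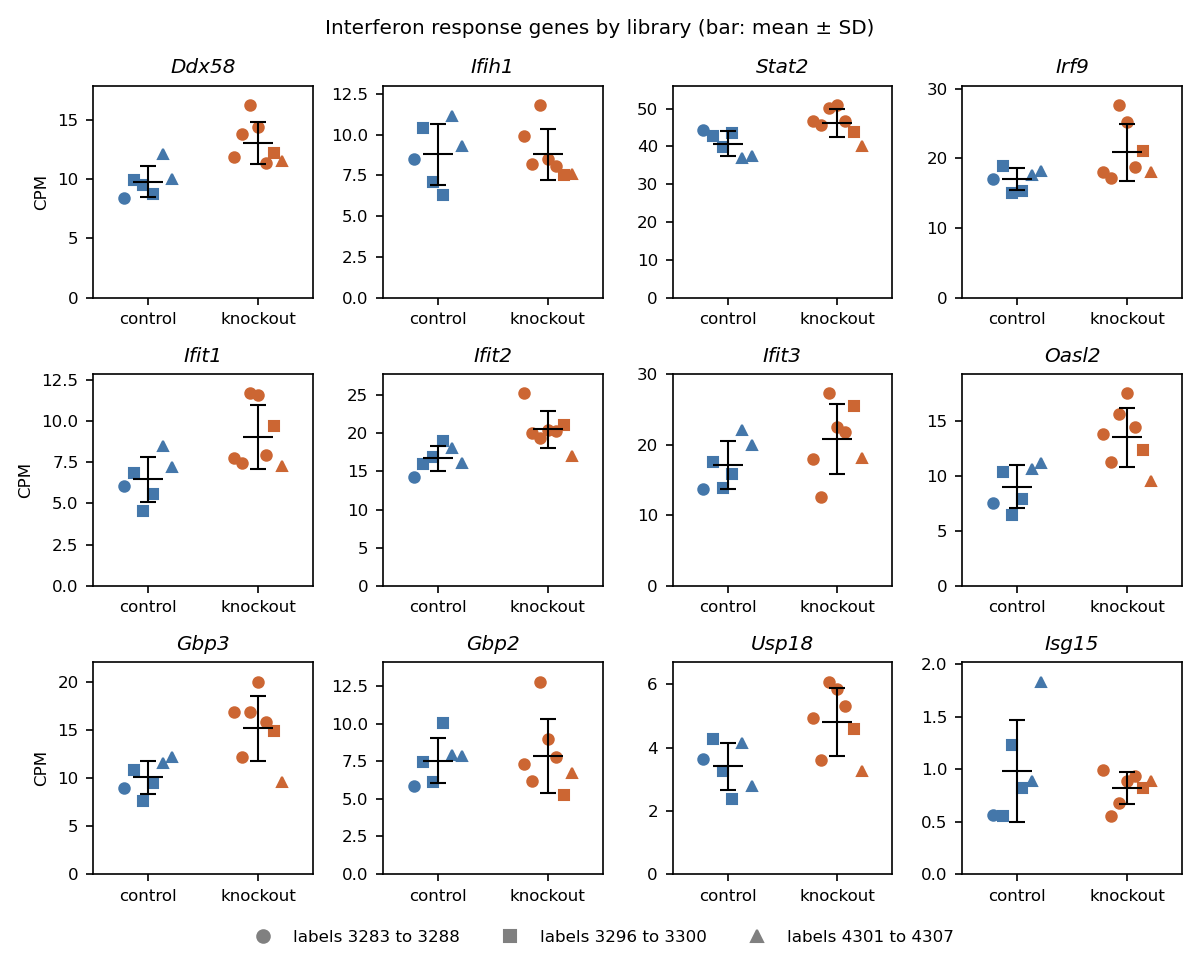
CPM in each library for 12 interferon response genes, controls in blue and knockouts in orange, with marker shapes for the 3 runs of label numbers and bars for mean ± SD (n = 6 and 7). Knockouts lie mostly above controls for Oasl2 and Gbp3, where 6 of 7 exceed every control, and lie over them for Ifih1, Gbp2 and Isg15.

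Isg15 and the enzymes around it included values of both signs. Isg15 encodes the ubiquitin-like protein that interferon attaches to other proteins. It was at 0.550 to 1.83 CPM (median 0.855) in controls and 0.554 to 0.989 CPM (median 0.884) in knockouts. Its 8 to 27 counts per library were among the lowest of the set. Per kilobase of exon it stood at 1.30 CPM in controls, place 23 of the 39 members by that measure. Control replicate 6 stood highest at 1.83 CPM and no knockout exceeded every control (log2 fold change -0.27, SE 0.29, adjusted p = 0.75 in edgeR). Without control replicate 6 the Isg15 value was 0.01. Usp18, the protease that removes Isg15 and restrains the receptor, was at 2.38 to 4.26 CPM (median 3.45) and 3.26 to 6.09 CPM (median 4.95). It was above every control in 5 of 7 knockouts (log2 fold change 0.50, SE 0.17, adjusted p = 0.25 in edgeR). Trim30a, a ligase that restrains innate signalling, was at 4.004 to 6.88 CPM (median 5.54) and 4.85 to 8.73 CPM (median 7.41), with 4 knockouts above every control (log2 fold change 0.35, SE 0.15, adjusted p = 0.34 in edgeR). Herc6, the ligase that conjugates Isg15 in mice, was at 0.16 (SE 0.12), and Trim25, which modifies Rig-I, at 0.11 (SE 0.13).

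The Parp and Schlafen genes were all positive, with Slfn2 alone under an unadjusted p of 0.05. Slfn2, a regulator of quiescence in immune cells, was at 2.16 to 3.995 CPM (median 2.50) in controls and 2.45 to 4.99 CPM (median 3.71) in knockouts (log2 fold change 0.45, SE 0.19, adjusted p = 0.34 in edgeR). Slfn5 was at 5.17 to 7.92 CPM (median 5.55) and 3.76 to 9.89 CPM (median 6.93), the knockouts reaching past the controls on both sides (0.23, SE 0.18). Parp14, an ADP-ribosyltransferase, was at 2.24 to 3.61 CPM (median 3.44) and 2.77 to 5.47 CPM (median 3.67), with 4 knockouts above every control (0.29, SE 0.17), and its partner gene Parp9 was at 0.22 (SE 0.12).

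Effectors at membranes were positive, with no unadjusted p under 0.05 in edgeR. Ifitm3, which blocks viral entry in endosomes, was the member with the highest level per length, at 11.7 CPM per kilobase of exon in controls against 6.88 for Stat2 and 0.252 for Ifi44. Its values were 6.45 to 9.77 CPM (median 7.92) in controls and 5.19 to 13.04 CPM (median 9.22) in knockouts (log2 fold change 0.15, SE 0.16). Bst2, the tether of budding virions, was at 2.44 to 5.64 CPM (median 3.18) and 1.63 to 5.53 CPM (median 3.65), at 0.11 (SE 0.25). No knockout exceeded every control in Bst2, and knockout replicate 7 was the lowest of all 13 libraries in Ifitm3 and in Bst2. Ifi27l2a, with 2 to 32 counts, was at 0.123 to 1.70 CPM (median 0.497) and 0.216 to 1.88 CPM (median 0.922), at 0.51 (SE 0.49). Rtp4, a chaperone that restrains the response, was at 0.23 (SE 0.22).

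Of the other effectors, Ifi44 had the largest fold change of the set. Ifi44 rises in many interferon signatures; it was at 0.838 to 2.52 CPM (median 1.48) in controls and 1.78 to 4.03 CPM (median 2.23) in knockouts. All 7 knockouts were above the control median and 3 above every control (log2 fold change 0.75, SE 0.25, adjusted p = 0.24 in edgeR). Rsad2, which encodes viperin, was at 2.38 to 3.20 CPM (median 2.62) and 1.63 to 4.25 CPM (median 3.02), so that the knockouts spread beyond the controls on both sides (0.14, SE 0.21). Samd9l was at 0.26 (SE 0.13), Ifi35 at 0.20 (SE 0.19) and Xaf1 at 0.07 (SE 0.15). Mx1, the dynamin-like GTPase, was below the count filter at 0.204 to 0.481 CPM in controls and 0.277 to 0.935 CPM in knockouts. Cxcl10, which draws T cells and is the list's only chemokine, was at 0.629 to 1.97 CPM (median 0.906) and 0.623 to 1.73 CPM (median 1.18), with no knockout above every control (0.19, SE 0.29).

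Some libraries were high in most of the genes and others low, in both groups. The mean log2 CPM over the 37 genes ran from 2.07 to 2.46 (median 2.31) in controls and from 2.22 to 2.82 (median 2.58) in knockouts, with 5 of 7 knockouts above every control. Knockout replicates 3 and 4 held the highest value of the 13 libraries in 13 and 10 of the 37 genes, and exceeded the control median in 35 and 34. Replicates 1, 5 and 6 exceeded it in 34, 31 and 28 genes. Replicates 2 and 7 did so in only 15 and 19 genes and lay inside the control range. Among the controls, replicate 5 exceeded the control median in 31 genes and replicate 2 in 27, whereas replicate 3 did so in 5 and replicate 1 in 11. By role, the mean log2 CPM differed most for the Oas genes (0.45, with 5 knockouts above every control) and least for Isg15 and the ligases (0.19). For the Stat and Irf genes the difference was 0.30, for the Ifit genes 0.29, for the Gbp genes 0.27 and for the sensors 0.25, with no test. The Oas mean weighs Oas1a and Oas2, with 3 to 40 counts per library, as much as the more abundant Oasl2.

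**Figure D3:**
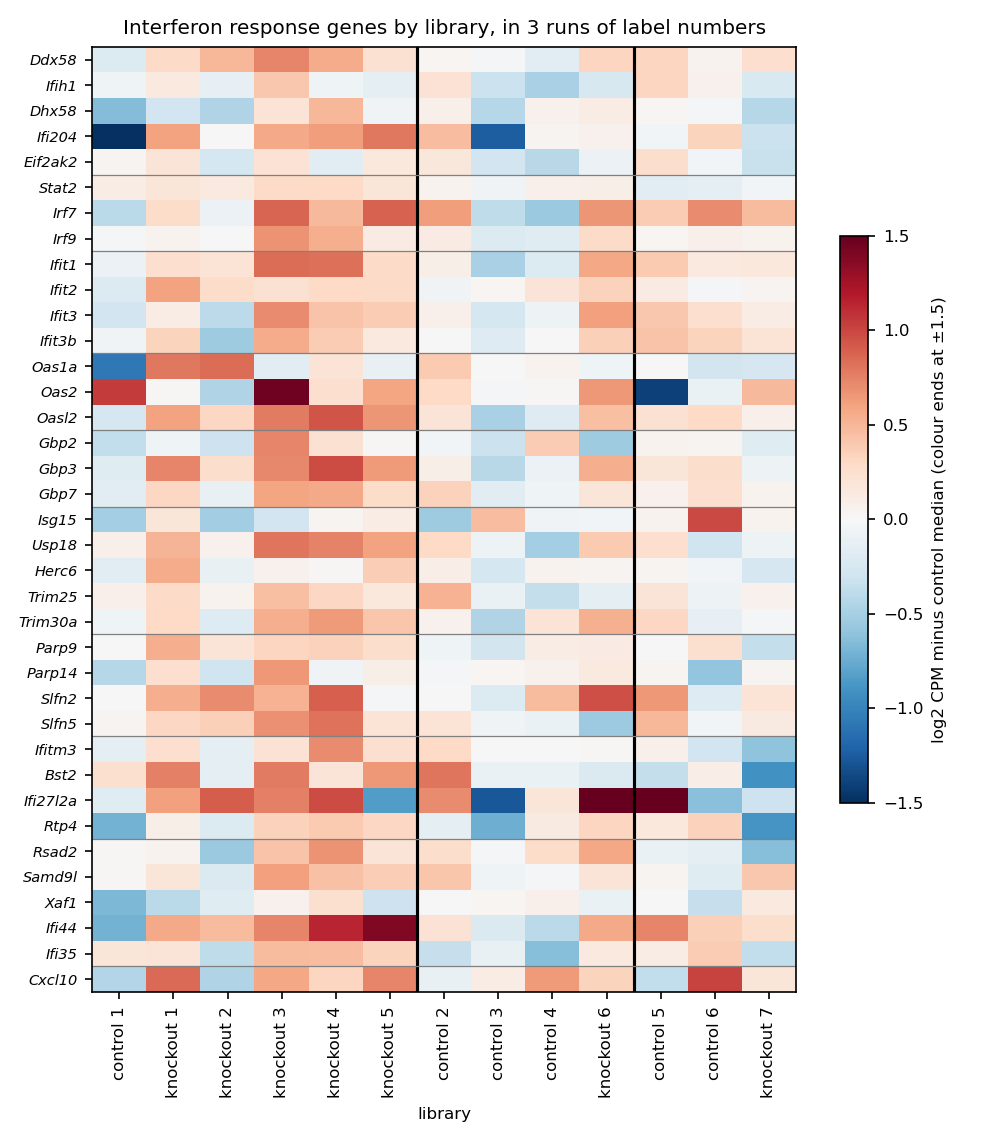
Log2 CPM of each interferon response gene minus its control median (colour, ending at ±1.5) in the 13 libraries, which are ordered by run of label numbers (black lines) with controls first. Knockouts 3 and 4 are red in nearly every row (35 and 34 of 37 genes above the control median), while knockouts 2 and 7 are mixed (15 and 19).

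Label numbers fall into 3 runs of unstated meaning. The run from 3283 to 3288 held 5 knockouts and 1 control, that from 3296 to 3300 held 1 knockout and 3 controls, and that from 4301 to 4307 held 1 knockout and 2 controls. In the first run, the mean of the knockouts was above the control in 35 of the 37 genes (94.6%, where 46.9% of all genes were), with a median difference of 0.49 in log2 CPM. In the run from 3296 to 3300 the single knockout was above the mean of the controls in 28 genes (75.7%, against 50.5% of all genes; median 0.29). In the run from 4301 to 4307 it was above in 8 genes (21.6%, against 49.8%), and the median was -0.18. Each run rests on 1 library in an arm: control replicate 1, knockout replicate 6 and knockout replicate 7. Positive differences in all 3 runs were held by 5 of the 37 genes, among them Ddx58 (0.67, 0.37 and 0.07), Stat2 (0.11, 0.06 and 0.11) and Irf9 (0.30, 0.37 and 0.01). The share of all genes that were positive in all 3 runs was not counted, so this number has no background beside it. Gbp3 went from 0.84 and 0.68 to -0.29, Oasl2 from 0.91 and 0.61 to -0.19, and Rtp4 from 0.90 and 0.57 to -1.14.

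When the genotype difference was tested for a change between runs, 6 of the 37 genes had an unadjusted p under 0.05 in edgeR (16.2%, against 7.28% of all genes): Rtp4, Ifi204, Gbp3, Oasl2, Ifi44 and Parp9. After adjustment over all genes 0 passed, with a smallest adjusted p of 0.53, and 0% of all genes passed. The runs themselves, tested beside genotype, gave an unadjusted p under 0.05 for Stat2 and Bst2 (5.41%, against 12.7% of all genes) and 0 after adjustment, where 0% of all genes passed. With the runs as a term in the genotype fit, 8 of the 37 genes were higher and 0 lower at an unadjusted p under 0.05 in edgeR (all genes 4.02% and 4.54%). In that fit 29 of 37 were positive, and Gbp3 was at 0.47, Oasl2 at 0.49, Ddx58 at 0.39 and Stat2 at 0.09. Without samples 4301 to 4307, 18 genes were higher and 0 lower by that rule (all genes 5.57% higher), and the median log2 fold change was 0.35. Without knockout replicate 2, 17 were higher (all genes 4.84%).

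**Figure D4:**
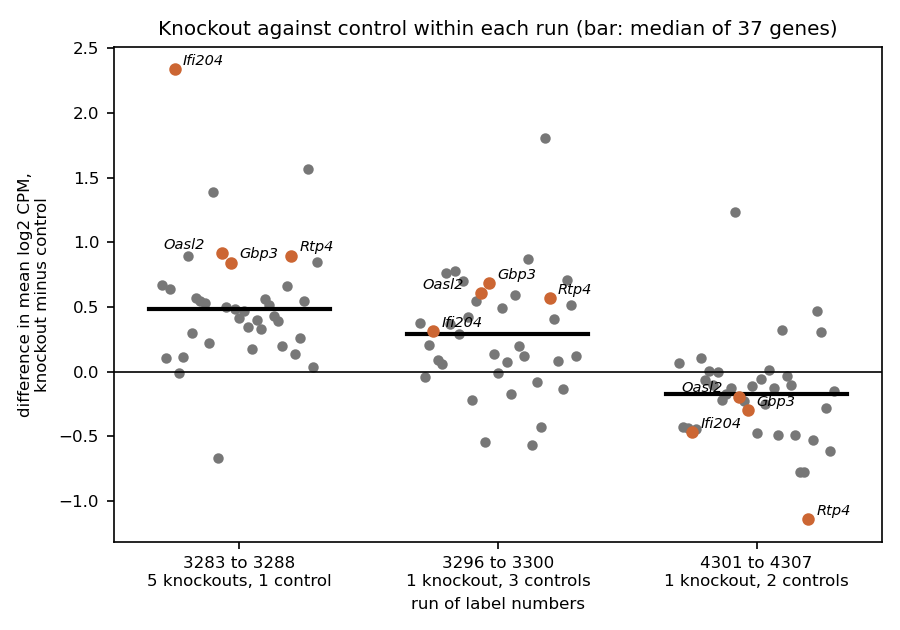
Difference in mean log2 CPM between knockouts and controls within each run of label numbers, 1 point per gene, with the median of the 37 genes as a bar and 4 genes named. The medians are 0.49, 0.29 and -0.18 from left to right, and Gbp3, Oasl2, Rtp4 and Ifi204 lie below 0 in the run from 4301 to 4307.

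The interferons themselves were almost without reads. Of 21 interferon ligand genes, 18 had no read in any library, Ifnb1 among them; 3 reads in the 191409188 counted over all libraries, the limit that a count of 0 allows, correspond to 0.0157 CPM. The other 3 had at most 2 reads (Ifna2 and Ifng) or 5 (Ifnk) in a library. The genes of the receptor pair were well expressed and overlapped between groups: Ifnar1 was at 47.1 to 53.4 CPM in controls and 48.8 to 60.2 CPM in knockouts (log2 fold change 0.10, SE 0.057), and Ifnar2 at 16.8 to 21.3 CPM and 16.0 to 21.3 CPM (-0.02, SE 0.084). Of 5 receptor genes tested, 1 was higher at an unadjusted p under 0.05 in edgeR, the interferon gamma receptor subunit Ifngr2 (0.15, SE 0.056). Ifngr1 was at 0.05.

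Receptor signalling and sensing genes outside the list were read by the same rule. At an unadjusted p under 0.05 in edgeR, 5.23% of all genes were higher and 7.25% lower. Among the signalling genes, Stat3 had an unadjusted p under 0.05 in edgeR and was higher (0.14, SE 0.057); the receptor kinases Jak1 and Tyk2 were at 0.03 (SE 0.046) and 0.13 (SE 0.074). Among 21 sensing adaptors and kinases tested, the Toll-like receptor adaptor Myd88 alone had such a p (0.21, SE 0.098). Irf8 (0.18), Ticam1 (0.29), Mavs (0.18), Irf3 (0.15), Sting1 (0.11) and Cgas (0.04) were all positive without an unadjusted p under 0.05. Of 61 further interferon-stimulated genes tested, 53 were positive (48.7% of all genes were) with a median of 0.18. At an unadjusted p under 0.05 in edgeR, 11 of the 61 were higher and 1 lower, against 5.23% and 7.25% of all genes. Slfn8 is a Schlafen gene with close paralogs and so with an uncertain count, although shared sequence was not measured outside the list. It was the only one of the 98 pathway genes tested whose groups did not overlap. Of all genes, 0.171% were apart in the higher and 0.274% in the lower direction. Slfn8 lay at 2.20 to 3.33 CPM in controls and 3.41 to 5.54 CPM in knockouts (log2 fold change 0.55, SE 0.15, adjusted p = 0.16 in edgeR). Trim34a was at 0.56 (SE 0.18). The lower gene was Psmb10, an immunoproteasome subunit, at 13.1 to 16.0 CPM in controls and 11.1 to 13.3 CPM in knockouts (-0.24, SE 0.081, adjusted p = 0.24 in edgeR).

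Markers of the cell types in the tissue were set beside these values. Hippocampal neuron markers were all present, summing to 1385 to 1560 CPM in controls and 1471 to 1669 CPM in knockouts. Of 18 pan-microglial genes 0 were higher and 7 lower at an unadjusted p under 0.05 in edgeR, where 5.23% of all genes were higher and 7.25% lower. Their sums were 1018 to 1213 CPM in controls and 971 to 1114 CPM in knockouts. By the same rule, 0 of 18 disease-associated microglial genes were higher and 11 lower. None of 12 homeostatic microglial genes had such a p. Of blood-derived cells, the markers gave sums of 3.75 to 6.05 and 2.66 to 4.84 CPM for 14 T and NK cell markers (controls and knockouts), and 0.605 to 2.38 and 1.40 to 4.91 CPM for 10 neutrophil and monocyte markers; Cd3d was at 0 in 9 libraries and Ly6g in 11. The 8 B cell markers summed to 20.7 to 33.7 CPM in controls and 17.6 to 28.1 CPM in knockouts, most of it Ighm, while Ms4a1 was at 0 in 12 libraries. Blood markers, the haemoglobin genes among them, were highest in knockout replicate 6 at 15.1 CPM, against 0.750 to 3.82 CPM in the other libraries. Brain endothelial markers summed to 495 to 637 CPM and 498 to 565 CPM. Choroid plexus markers ranged from 408 to 6039 CPM in controls and from 351 to 10151 CPM in knockouts, and knockout replicates 3 and 4, with the highest interferon gene levels, lay at 10151 and 470 CPM. With the choroid plexus sum as a covariate, 17 of 37 interferon genes were higher at an unadjusted p under 0.05 (all genes 6.03%), and Gbp3 (0.63) and Oasl2 (0.64) each had an adjusted p of 0.023 in edgeR. With a pan-microglial score as a covariate the count was 10 (all genes 2.07%) and the median log2 fold change 0.34. The part of the neutrophil and monocyte markers in these results was not tested.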

How the data were processed

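The submitters' processing notes name the build GRCm39 and, without their roles, DESeq2 1.36.0, R 4.2.0, STAR 2.7.10a and featureCounts 2.0.3. How multimapped reads were handled, the strand setting and the annotation release: not given in the sources used here. Per the labels' protocols, the library kit was SMART Seq mRNA LP. The deposited table holds raw read counts per Ensembl gene, 12159941 to 18322559 per library. Columns were matched to samples by the number in each title, and symbols by Ensembl identifier. All 36 within-group pairs of libraries differed beyond sampling noise, with chi-square per gene from 3.13 to 20.4.

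Counts were fitted here in R 4.3.3 by the quasi-likelihood F-test of edgeR 4.0.16, after filterByExpr and with TMM factors (Benjamini-Hochberg over 17549 genes, threshold 0.05); the SE is the log2 fold change over the square root of F. CPM values use TMM factors; log2 CPM uses a prior count of 2. Marker sums use library size alone. Exon lengths, chromosomes and 50-base stretches came from GENCODE M21 (GRCm38). Analyses were tested on simulated data. DESeq2 1.42.0, other scalings and filters, run terms, covariates and leaving out each library were alternatives. The genes, role groups and other lists were chosen with earlier results of these data known. Every member's fold change was taken; values by library were given for 28 named members and any other with an unadjusted p under 0.05, and in each pathway list for the 3 genes with the smallest p and 10 fixed genes; others named as examples were chosen after their values were seen. A gene of the signalling list is not reported here.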

Additional observations from a re-analysis of the deposited data

Results flagged for a closer look

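Ifit3b in knockout replicate 2 stood apart from its group, at 7.13 CPM where the other 6 knockouts lay between 11.5 and 15.4 CPM, with a gap to the nearest library of 0.622 of the group's range on the log2 scale. It was the only one of 74 gene and group combinations of the interferon response genes to do so, where chance alone would mark about 1 in 20. Ifit3, which shares much of its sequence with Ifit3b, was also lowest in that library, at 12.7 CPM.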

How the results depend on the processing

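Over 23 alternatives 27 of the 37 interferon genes kept the sign of their log2 fold change; Trim25, Slfn5, Ifitm3 and Bst2 turned below 0 only with the runs as a term, Ifih1, Eif2ak2, Oas2, Gbp2, Isg15 and Xaf1 turned under other alternatives or more than 1, and the median stayed between 0.19 and 0.35. Genes called at an adjusted p under 0.05, 4 in edgeR, were 178 with DESeq2, 66 without a count filter, 1 at a mean count of at least 50 and 74 with the choroid plexus covariate. Interferon genes called higher, 0 in edgeR, were 3, 2 and 2 with DESeq2, without a filter and with the choroid plexus covariate, and 0 in the other settings. Those higher with an unadjusted p under 0.05, 11 in edgeR (all genes 5.23%), went up in some settings and down in others. They were 18 without samples 4301 to 4307 (all genes 5.57%) and 17 with the choroid plexus covariate (6.03%). They were 8 with the runs as a term (all genes 4.02%) and 10 with the pan-microglial covariate (2.07%). Among the members left at a mean count of at least 50 they were 9 (all genes 7.08%). Lpcat3 (-0.45, adjusted p = 0.096 in edgeR) passed with DESeq2 (-0.44), without a filter (-0.44) and with the choroid plexus covariate (-0.445). Without a filter Bst2 was called between runs (1 gene), and Ifi204 and Rtp4 in the change of the genotype difference between runs (2 genes). The share of all genes called in that setting is not given here, so these calls have no background beside them. Over the alternatives, 0 to 722 of all genes were called between runs and 0 to 372 in that change. The cause was not tested. Leaving out each library gave 3 to 80 genes called (80 without control replicate 1, 7 without knockout replicate 3). Lpcat3 was then at -0.50 to -0.41 and passed in those 2 cases. Interferon genes higher with an unadjusted p under 0.05 were then 9 to 17, where 4.41% to 7.52% of all genes were higher. The change between runs could not be fitted without control replicate 1 or knockout replicates 6 or 7. No paired analysis was possible because the labels give no number shared between the groups. Members with few counts, such as Isg15, Oas1a, Oas2 and Ifi27l2a, were limited by depth. In the 250 bases before the start alone, 42.4% of the members' promoters held the response element core.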

Other observations

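Outside the list, some further interferon-stimulated GTPases are named here after their values were seen. Irgm1, an immunity-related GTPase of the kind that acts on the vacuoles of intracellular parasites, was at 15.2 to 24.8 CPM (median 18.4) in controls and 17.8 to 37.9 CPM (median 22.8) in knockouts, with a log2 fold change of 0.44 (SE 0.16) and 3 knockouts above every control. Irgm2, its relative, was at 8.45 to 13.1 CPM (median 9.36) and 9.04 to 23.2 CPM (median 11.99), at 0.54 (SE 0.20). Others of that family had no unadjusted p under 0.05 in edgeR: Igtp was at 0.37 (SE 0.26), Ifi47 at 0.45 (SE 0.27), Iigp1 at 0.39 (SE 0.23) and Tgtp1 at 0.10 (SE 0.44), the last with a median of 2.20 CPM in controls and 1.16 CPM in knockouts. Gbp6, a guanylate-binding protein, was at 1.68 to 3.20 CPM (median 2.14) and 1.63 to 6.39 CPM (median 4.17), at 0.66 (SE 0.27), with 4 knockouts above every control. Its relatives Gbp4 (0.25, SE 0.20), Gbp5 (0.30, SE 0.22) and Gbp9 (0.07, SE 0.14) had no unadjusted p under 0.05 in edgeR. The adjusted p values in edgeR were 0.27 for Irgm1, 0.28 for Irgm2 and 0.32 for Gbp6. In the run from 4301 to 4307 the difference was -0.19 for Irgm1, -0.32 for Irgm2, -0.65 for Igtp, 0.35 for Ifi47, -0.33 for Iigp1, -1.28 for Tgtp1 and -0.52 for Gbp6.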
